A study of Mus musculus with 24 samples.

Results

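The 57 genes described here encode proteins of DNA damage signalling and repair. They were chosen by name for their function, with earlier results of these data known, and the rule for choosing them used no measured value. Of the 38215 genes in the table, 56 matched by symbol and Rad51d matched by its gene ID, since its row carries the older name Rad51l3. All 57 passed the filter on low counts and were tested together with the other genes, 15879 in all.

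The study sequenced polyadenylated RNA of long-term haematopoietic stem cells (LT-HSCs), sorted from mouse bone marrow as lineage-negative Sca1+ cKit+ cells that were CD150+ and CD48-. Each of 12 mice was a lethally irradiated recipient given a 1:1 mix of marrow from a Jak2fl-V617F/+ Tg(E2A-cre) donor and from a congenic Jak2+/+ donor. The groups were Jak2V617F pegIFN, Jak2V617F vehicle, wild-type pegIFN and wild-type vehicle, with 6 libraries each, and every mouse gave 1 library of each genotype by the numbers in the library names. PegIFN (pegylated interferon alpha) was injected weekly at 600 ng in 5 doses over 4 weeks, vehicle was saline with albumin, and marrow was collected 48 hours after the final dose. All cells had therefore been transplanted into irradiated hosts, and the mutant and wild-type cells of a mouse shared 1 marrow. Jak2V617F makes the kinase Jak2 signal without cytokine and is common in myeloproliferative neoplasms. The Cre transgene acts in the early embryo, so the mutation is not limited to blood cells of the donor. Genotype cannot be told apart from the donor, its CD45 allele or the Cre transgene.

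DNA breaks are sensed by the kinases Atm and Atr and marked in chromatin around the break, and they are then mended by homologous recombination or end joining. Homologous recombination copies an intact sister chromatid and works in S and G2 phase, whereas non-homologous end joining rejoins ends directly and is the main route in cells that do not divide. The Fanconi anaemia proteins undo crosslinks between strands at stalled replication forks. Other routes mend single-strand breaks, damaged bases and mismatches. LT-HSCs are mostly quiescent, interferon alpha is known to drive them into cycle, and loss of Fanconi anaemia genes leads to failure of the bone marrow.

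Promoter sequences are shown for 5 members because many repair genes are classical targets of E2F, the transcription factor family of S phase entry, and because interferon acts through a different element, the ISRE. Promoters of 46 of the 57 members were in the RefSeq table (GRCm38.p6). The letters searched, on both strands and in the 300 bases from 250 before to 50 after the start, were TTTCCCGC, TTTGGCGC, TTTGCCGC and TTTCGCGC for E2F and, for the ISRE, GAAA repeated after a gap of any 2 bases. The printed stretch is the 250 bases before the RefSeq start, 5′ to 3′ on the strand of the gene, and capitals mark these letters. Bard1 (chr1:71102973-71103222, minus strand) has an E2F string, Xrcc6 (chr15:82016119-82016368, plus) has one in reverse, and Brca2 (chr5:150522371-150522620, plus) has an ISRE string and a reverse E2F string. Fancg (chr4:43010302-43010551, minus) has a reverse ISRE string that overlaps an E2F string, and Blm (chr7:80534999-80535248, minus) has neither.
Bard1: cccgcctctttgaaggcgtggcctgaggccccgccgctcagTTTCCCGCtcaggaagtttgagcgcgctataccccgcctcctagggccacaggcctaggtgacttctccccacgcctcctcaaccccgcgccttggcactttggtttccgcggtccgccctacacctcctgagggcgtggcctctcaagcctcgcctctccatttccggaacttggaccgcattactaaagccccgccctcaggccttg
Xrcc6: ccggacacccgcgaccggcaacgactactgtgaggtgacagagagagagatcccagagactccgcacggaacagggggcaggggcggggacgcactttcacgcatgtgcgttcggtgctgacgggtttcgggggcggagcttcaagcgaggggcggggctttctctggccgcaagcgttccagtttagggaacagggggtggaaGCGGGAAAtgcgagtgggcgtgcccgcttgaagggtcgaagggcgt
Brca2: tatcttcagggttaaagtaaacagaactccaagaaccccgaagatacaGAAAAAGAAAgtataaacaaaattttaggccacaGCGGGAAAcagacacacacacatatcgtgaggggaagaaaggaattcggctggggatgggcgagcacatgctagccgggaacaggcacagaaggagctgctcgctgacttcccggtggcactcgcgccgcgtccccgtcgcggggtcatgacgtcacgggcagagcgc
Fancg: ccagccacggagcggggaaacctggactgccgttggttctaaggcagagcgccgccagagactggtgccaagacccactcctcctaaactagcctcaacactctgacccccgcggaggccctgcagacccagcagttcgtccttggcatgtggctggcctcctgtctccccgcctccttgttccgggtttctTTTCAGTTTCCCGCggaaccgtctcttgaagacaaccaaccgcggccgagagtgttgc
Blm: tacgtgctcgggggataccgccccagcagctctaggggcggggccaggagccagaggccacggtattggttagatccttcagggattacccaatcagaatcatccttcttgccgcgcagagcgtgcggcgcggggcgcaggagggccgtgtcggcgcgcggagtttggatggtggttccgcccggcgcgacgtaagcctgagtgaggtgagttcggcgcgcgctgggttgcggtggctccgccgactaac

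The counts are of genes, and a gene counted if any of its promoters in the table held the string. An E2F string was found for 9 of the 46 members (19.6%), against 2.60% of all 27025 genes with a promoter in the table and 4.60% of the 9897 tested genes among them. An ISRE string was found for 5 members (10.9%), Brca2, Brip1, Chek1, Fancg and Xrcc1, against 3.99% of all these genes and 3.88% of the tested ones. The next counts set them beside the response to pegIFN in wild-type cells. E2F strings were found for 4 of 22 members that rose (18.2%) and 5 of 22 members that were not called (22.7%), and ISRE strings for 1 of 22 (4.55%) and 4 of 22 (18.2%). Of the promoters printed, Bard1, Xrcc6 and Blm belong to members that rose, Brca2 and Fancg to members that were not called. These counts rest on letters, not on bound sites.

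Total counts ran from 24.6 M to 39.7 M per library. Levels are given as CPM (counts per 1 M counts, on TMM-scaled library sizes), and where a group has 3 values they are the lowest, the median and the highest of its 6 libraries. Fold changes are log2 values, each with its standard error, and a gene is called where the edgeR adjusted p over all tested genes is under 0.05. In bulk RNA, a change in the share of cells that express a gene and a change in RNA per cell cannot be told apart. Of the 12 LT-HSC markers examined, including Kit, Procr, Hlf and Mecom, 10 fell and 1 rose with pegIFN in each genotype. Among all tested genes, 22.3% fell and 21.7% rose in Jak2V617F cells, and 28.7% fell and 28.2% rose in wild-type cells. The summed level of the LT-HSC markers was 1160 to 1820 CPM in Jak2V617F pegIFN and 1640 to 2040 CPM in Jak2V617F vehicle. In wild-type cells it was 1260 to 1690 CPM under pegIFN and 2070 to 2760 CPM under vehicle. Markers of other cells were present and differed between groups, here in the order Jak2V617F pegIFN, Jak2V617F vehicle, wild-type pegIFN and wild-type vehicle. Summed over 10 myeloid genes they were at 927 to 1500, 401 to 2180, 210 to 654 and 394 to 1060 CPM, so all Jak2V617F pegIFN libraries lay above all wild-type pegIFN libraries. Over 11 erythroid genes they were at 343 to 790, 401 to 769, 731 to 1250 and 332 to 957 CPM, and over 7 megakaryocyte genes at 2090 to 2890, 1350 to 2760, 1610 to 2530 and 826 to 2230 CPM. B cell genes (7) summed to 11.3 to 17.9, 11.2 to 24.0, 10.3 to 14.4 and 15.3 to 25.1 CPM. T and NK cell genes (7) summed to 90.2 to 143, 59.7 to 79.2, 65.4 to 103 and 36.9 to 81.3 CPM, higher in all pegIFN than in all vehicle libraries of Jak2V617F cells, and 4 of these genes stayed under 1 CPM in all 24 libraries. The part of such cells in the members' differences was not tested. In an earlier analysis of these data, sex-linked genes set Jak2V617F pegIFN replicate 1 and wild-type vehicle replicate 4 apart from their groups. Whether their labels hold was not tested, so the genotype of these 2 libraries is in doubt, and counts are also given without them.

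Per kilobase of exon, the members spanned a wide range. Exon length was that of all GENCODE exons of a gene joined, which may differ from the gene models used for the counts. In wild-type vehicle cells the median level was 104 CPM per kb for H2afx, the histone variant that marks breaks, 60.5 for the break sensor Parp1, 37.7 for the mismatch repair subunit Msh6, 27.5 for the chromatin reader Mdc1 and 23.9 for Rad50. It was 1.01 for Rad51c, a recombination protein, and 0.849 for Lig4, the ligase of end joining. The low members are the least precisely measured, with standard errors of 0.22 for Rad51c and 0.18 for Lig4 on the log2 scale.

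PegIFN raised 10 of the 57 members and lowered 2 in Jak2V617F cells (17.5% and 3.51%, against 21.7% and 22.3% of all tested genes). In wild-type cells it raised 29 and lowered 4 (50.9% and 7.02%, against 28.2% and 28.7% of all tested genes). The share that rose was near the background in Jak2V617F cells and above it in wild-type cells, and the share that fell was below it in both. The changes were small, with a median of 0.07 in Jak2V617F and 0.16 in wild-type cells (over all tested genes -0.01 and -0.01) and none beyond 0.79. All 10 members that rose in Jak2V617F cells also rose in wild-type cells, where they were 34.5% of the members that rose. Of all tested genes that rose in Jak2V617F cells 90.0% also rose in wild-type cells, where they were 69.4% of those that rose. The 10 members were Nbn, Rnf8, Bard1, Rad54l, Blm, Fancf, Xrcc6, Parp2, Xrcc1 and Lig3. Trp53bp1 and Xpc fell in both, and of all tested genes that fell in Jak2V617F cells 88.9% also fell in wild-type cells. Without the libraries that stand apart, 12 rose and 1 fell in Jak2V617F cells (20.9% and 21.4% of all tested genes did), and 26 rose and 4 fell in wild-type cells (26.5% and 26.8%). With upper-quartile scaling, 7 rose and 2 fell in Jak2V617F cells (16.9% and 26.6% of all tested genes), and 20 rose and 4 fell in wild-type cells (22.0% and 34.0%). With the mouse as a block the counts were 11 and 2 (21.5% and 21.5% of all tested genes) and 31 and 4 (28.6% and 27.8%). Wild-type pegIFN libraries were all above wild-type vehicle libraries for 14 members (24.6%, against 15.1% of all tested genes) and all below for 3 (5.26%, against 14.8%). In Jak2V617F cells the same held for 7 members (12.3%, against 9.81%) and for 0 (0.0%, against 8.58%).

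**Figure D1:**
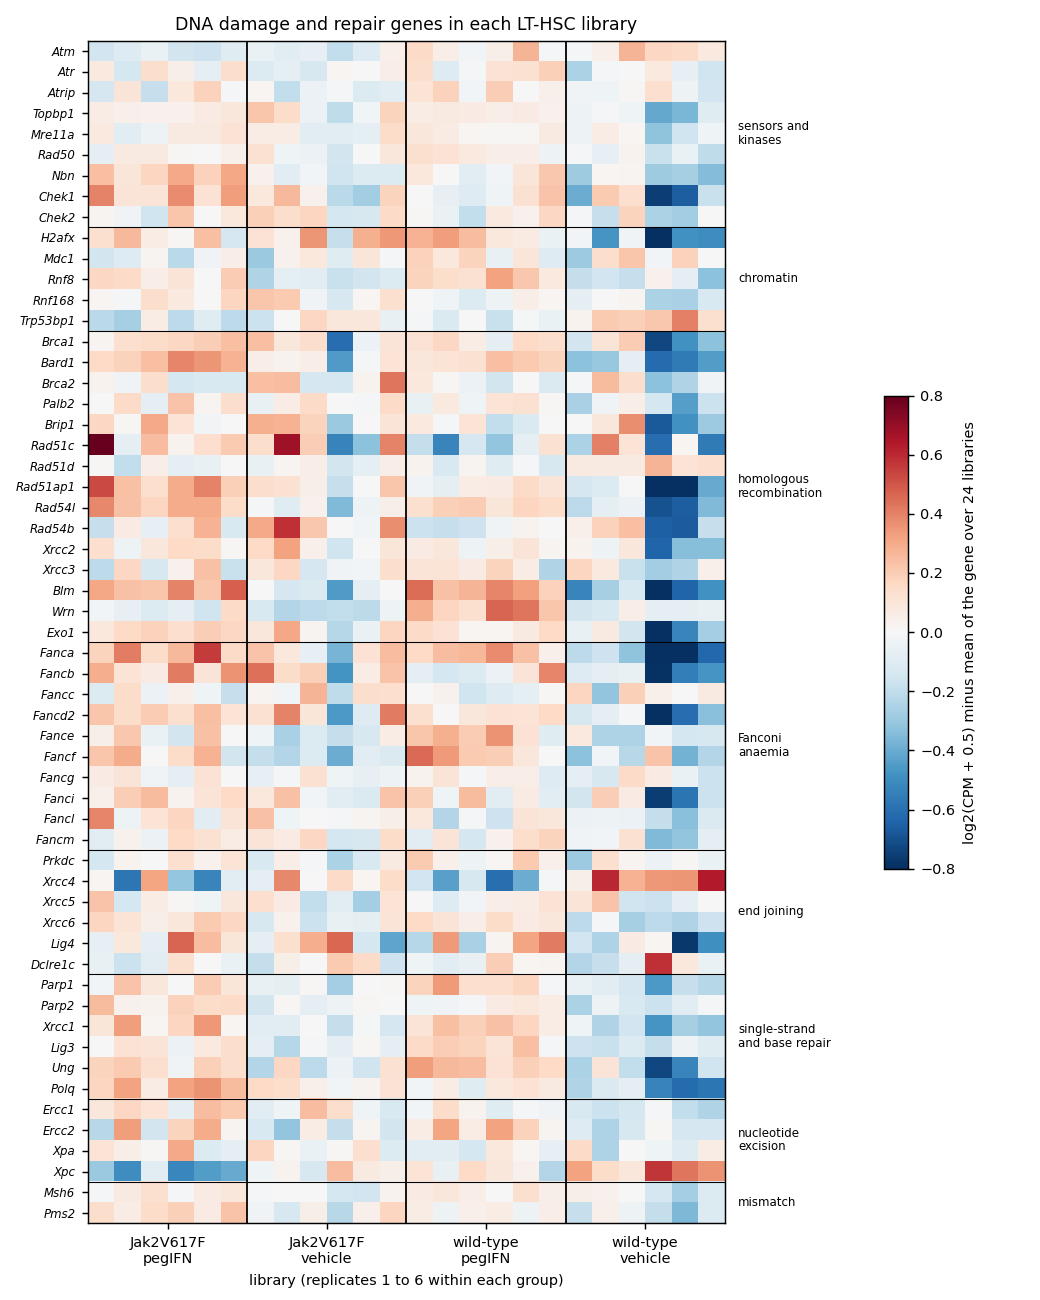
Level of each of the 57 genes (rows, grouped by role) in each of the 24 libraries (columns, replicates 1 to 6 from left to right within a group), as log2(CPM + 0.5) minus the mean of the gene over all libraries. Wild-type vehicle replicates 4 and 5 and, less often, Jak2V617F vehicle replicate 4 are low (blue) for many genes of homologous recombination and the Fanconi anaemia pathway, while Xpc and Trp53bp1 run the other way. Xrcc4 has its highest group median in wild-type vehicle cells (9.58 CPM), and replicates 4 and 5 lie near that median.

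**Figure D2:**
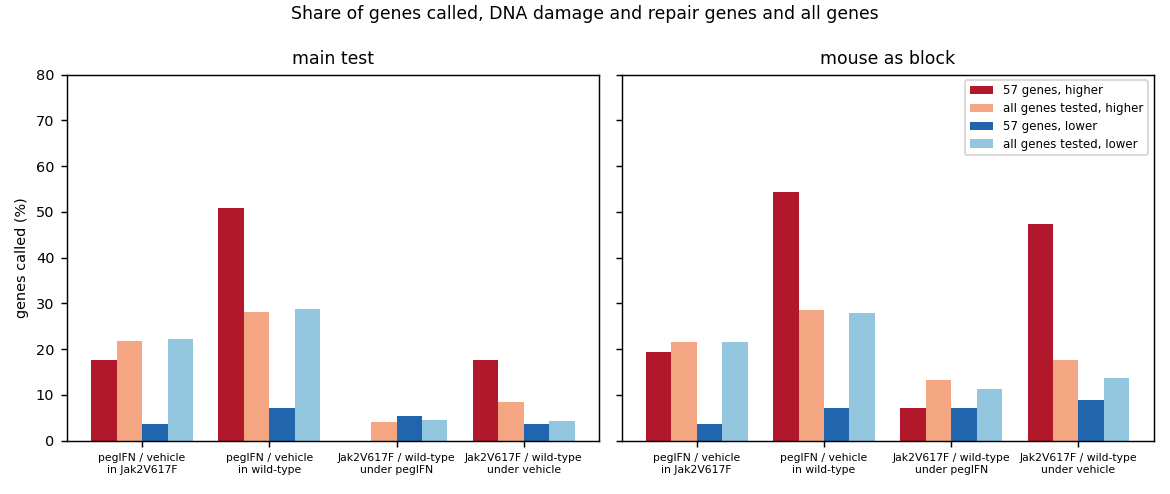
Share of genes called higher or lower (%) in each comparison, for the 57 genes and for all 15879 tested genes, in the main test (left) and with the mouse as a block (right). In the main test 50.9% of the 57 genes rose with pegIFN in wild-type cells, against 28.2% of all tested genes, and 17.5% in Jak2V617F cells, against 21.7%.

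Among the 9 sensors and signalling kinases, pegIFN raised 1 in Jak2V617F and 4 in wild-type cells, and lowered none in either. Of all tested genes it raised 21.7% and lowered 22.3% in Jak2V617F cells, and raised 28.2% and lowered 28.7% in wild-type cells. These shares stand beside the counts of every role below, and no role was tested as a set. The member that rose in both was Nbn, the subunit of the Mre11a-Rad50-Nbn complex that recruits Atm to breaks. In Jak2V617F cells Nbn was at 48.7, 52.8 and 56.6 CPM under pegIFN against 40.7, 42.5 and 46.6 CPM under vehicle (0.30 ± 0.07, adjusted p = 0.001). In wild-type cells it was at 42.8, 46.9 and 52.8 CPM under pegIFN against 35.6, 37.5 and 46.1 CPM under vehicle (0.24 ± 0.07, adjusted p = 0.0044). The pegIFN libraries lay above all vehicle libraries in Jak2V617F cells and overlapped them in wild-type cells. Topbp1, which activates Atr, was at 272, 277 and 279 CPM in wild-type pegIFN against 200, 252 and 264 CPM in wild-type vehicle (0.21 ± 0.07, adjusted p = 0.012), with no overlap. For Rad50 the libraries were at 130, 140 and 146 CPM in wild-type pegIFN against 116, 128 and 136 CPM in wild-type vehicle, and for the kinase Atr at 89.1, 104 and 109 CPM in wild-type pegIFN against 80, 92.9 and 101 CPM in wild-type vehicle. Both sets overlapped between treatments. Rad50 (0.15 ± 0.05, adjusted p = 0.016) and Atr (0.15 ± 0.06, adjusted p = 0.047) also rose in wild-type cells, but none of these 3 was called in wild-type cells with upper-quartile scaling, and Atr missed the threshold with the mouse as a block (adjusted p = 0.054).

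Atm, the kinase that answers double-strand breaks, did not pass the test for pegIFN, with 90.8, 93.4 and 98.1 CPM in Jak2V617F pegIFN against 88.9, 96.5 and 105 CPM in Jak2V617F vehicle, and 101, 106 and 123 CPM in wild-type pegIFN against 101, 110 and 123 CPM in wild-type vehicle. The fold changes were -0.04 ± 0.05 and -0.03 ± 0.05. Its target kinase Chek2 gave -0.04 ± 0.08 in Jak2V617F and 0.09 ± 0.08 in wild-type cells. Chek1, the checkpoint kinase downstream of Atr, was at 48.1, 52.6 and 59.1 CPM in Jak2V617F pegIFN against 36.9, 46.7 and 53.8 CPM in Jak2V617F vehicle (0.22 ± 0.13, adjusted p = 0.18), and at 41.6, 44.2 and 52.4 CPM in wild-type pegIFN against 26.4, 36.7 and 51.8 CPM in wild-type vehicle (0.26 ± 0.13, adjusted p = 0.1). Its vehicle libraries were widely spread, and with the mouse as a block the wild-type value was 0.31 ± 0.13 (adjusted p = 0.037). Atrip, the partner of Atr, and the nuclease Mre11a were not called in either genotype.

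Among the 5 genes that mark chromatin at breaks, 1 rose and 1 fell in Jak2V617F cells (21.7% and 22.3% of all tested genes). In wild-type cells 2 rose and 1 fell (28.2% and 28.7%). H2afx was at 183, 215 and 241 CPM in Jak2V617F pegIFN against 177, 231 and 257 CPM in Jak2V617F vehicle, a difference that was not called (-0.07 ± 0.12, adjusted p = 0.68). It was at 194, 226 and 253 CPM in wild-type pegIFN against 103, 144 and 198 CPM in wild-type vehicle, and it rose 1.46-fold (0.54 ± 0.12, adjusted p = 0.00066). The wild-type vehicle libraries were low, and the medians of the other 3 groups lay between 215 and 231 CPM. Rnf8, the ubiquitin ligase recruited by marked chromatin, rose in both genotypes, by 0.25 ± 0.05 in Jak2V617F (adjusted p = 0.00063) and 0.32 ± 0.05 in wild-type cells (adjusted p = 2.3e-05), with no overlap between pegIFN and vehicle libraries in either. Its libraries were at 89.1, 97.4 and 103 CPM in Jak2V617F pegIFN against 75.3, 81.5 and 84.3 CPM in Jak2V617F vehicle, and at 94, 99.4 and 111 CPM in wild-type pegIFN against 70.7, 79.2 and 91.2 CPM in wild-type vehicle. Trp53bp1, which holds back resection at breaks and favours end joining, was at 102, 106 and 128 CPM in Jak2V617F pegIFN against 109, 127 and 137 CPM in Jak2V617F vehicle (-0.18 ± 0.06, adjusted p = 0.03). Wild-type cells had 108, 120 and 123 CPM under pegIFN against 125, 141 and 162 CPM under vehicle (-0.26 ± 0.06, adjusted p = 0.0014). Every wild-type pegIFN library was thus below every wild-type vehicle library, while the call in Jak2V617F cells was lost without the libraries that stand apart (-0.16, adjusted p = 0.061). That call was also lost without both mice of those libraries (adjusted p = 0.12), with no filter on low counts (adjusted p = 0.067) and with only the groups compared (adjusted p = 0.055). It held with the mouse as a block (adjusted p = 0.024). Mdc1 and the ubiquitin ligase Rnf168 were not called.

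Homologous recombination was the largest role, with 15 members. Of these, 3 rose and none fell in Jak2V617F cells (21.7% and 22.3% of all tested genes), so the share that rose was near the background. In wild-type cells 8 rose and 1 fell (28.2% and 28.7%). Blm, the RecQ helicase that dissolves recombination intermediates, had the largest change of any member. It was at 95.7, 99.7 and 115 CPM in Jak2V617F pegIFN against 60.1, 77.0 and 82.6 CPM in Jak2V617F vehicle (1.35-fold, 0.44 ± 0.09, adjusted p = 0.00064). In wild-type cells it was at 93.8, 102 and 112 CPM under pegIFN against 44.4, 57.7 and 75.6 CPM under vehicle (1.72-fold, 0.79 ± 0.10, adjusted p = 2.7e-07). Both pegIFN groups lay above all vehicle libraries of their genotype and at like levels. Bard1, the partner that stabilises Brca1, was at 41.3, 44.3 and 48.7 CPM in Jak2V617F pegIFN against 26.8, 38.0 and 39.98 CPM in Jak2V617F vehicle (0.30 ± 0.09, adjusted p = 0.0072), and at 39.5, 41.2 and 43.9 CPM in wild-type pegIFN against 23.9, 28.2 and 35.2 CPM in wild-type vehicle (0.55 ± 0.09, adjusted p = 1.1e-05). Rad54l, a motor protein of strand invasion, rose by 0.32 ± 0.09 in Jak2V617F (adjusted p = 0.0059) and by 0.48 ± 0.09 in wild-type cells (adjusted p = 9.5e-05). Its libraries were at 84.9, 92.2 and 100 CPM in Jak2V617F pegIFN against 59.8, 75.4 and 79.4 CPM in Jak2V617F vehicle, and at 81.9, 85.6 and 88.4 CPM in wild-type pegIFN against 47.2, 63.1 and 74.1 CPM in wild-type vehicle. Bard1 and Rad54l also showed no overlap between pegIFN and vehicle libraries in either genotype.

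Wrn, a second RecQ helicase, rose in wild-type cells, with 94.5, 103 and 119 CPM under pegIFN against 77.9, 82.1 and 89.7 CPM under vehicle (0.36 ± 0.06, adjusted p = 2.1e-05). In Jak2V617F cells it was at 77.4, 82.2 and 96.2 CPM under pegIFN against 73.4, 75.0 and 84.2 CPM under vehicle (0.12 ± 0.06, adjusted p = 0.1), so the groups overlapped there. The recombination cofactor Rad51ap1 (0.41), the resection nuclease Exo1 (0.36), the recombination protein Xrcc2 (0.24) and Palb2 (0.20), which bridges Brca1 and Brca2, were the other members that rose in wild-type cells. The one that fell was Rad51d, also a recombination protein, at 36.3, 38.3 and 40.6 CPM in wild-type pegIFN against 41.7, 42.4 and 48.0 CPM in wild-type vehicle (-0.18 ± 0.05, adjusted p = 0.0078), with no overlap, and this call was lost when no filter on low counts was used (-0.14, adjusted p = 0.059).

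The breast cancer genes at the centre of the pathway did not pass the test. Brca1 was at 71.9, 78.9 and 83.8 CPM in Jak2V617F pegIFN against 46.2, 75.7 and 83.6 CPM in Jak2V617F vehicle (0.14 ± 0.13, adjusted p = 0.38), and at 67.1, 77.3 and 79.6 CPM in wild-type pegIFN against 42.6, 60.1 and 81.6 CPM in wild-type vehicle (0.29 ± 0.13, adjusted p = 0.053). Its vehicle libraries were widely spread, and it was called in wild-type cells with the mouse as a block (0.33 ± 0.12, adjusted p = 0.019), with DESeq2 (0.29, adjusted p = 0.04) and with no filter on low counts (0.33, adjusted p = 0.049). Brca2, a mediator of strand exchange, was at 76.0, 79.7 and 92.5 CPM in Jak2V617F pegIFN against 76.1, 92.4 and 113 CPM in Jak2V617F vehicle (-0.17 ± 0.09, adjusted p = 0.16), and at 75.6, 82.6 and 89.0 CPM in wild-type pegIFN against 66.8, 82.8 and 100 CPM in wild-type vehicle (-0.01 ± 0.09, adjusted p = 0.93). Its range in the pegIFN groups lay within that of the wild-type vehicle group. The helicase Brip1, the recombination proteins Rad51c and Xrcc3 and the motor protein Rad54b were likewise not called for pegIFN.

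**Figure D3:**
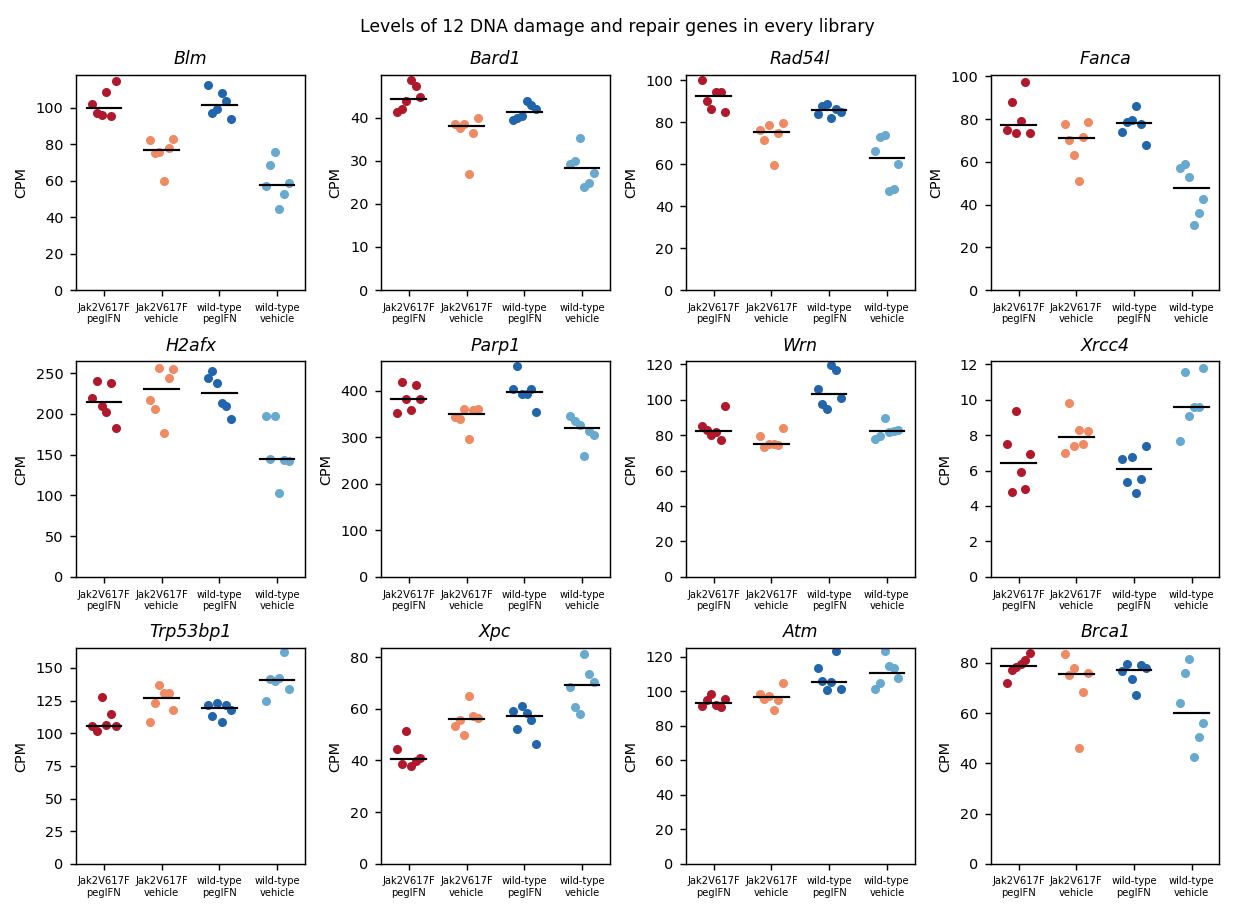
CPM of 12 members in every library, with Jak2V617F pegIFN, Jak2V617F vehicle, wild-type pegIFN and wild-type vehicle from left to right, points for libraries and bars for the group median. Blm, Bard1 and Rad54l are higher in every pegIFN library than in every vehicle library of the same genotype, whereas Xpc is lowest in Jak2V617F pegIFN cells (median 40.5 CPM) and highest in wild-type vehicle cells (median 69.2 CPM).

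Of the 10 Fanconi anaemia genes, 1 rose in Jak2V617F cells (21.7% of all tested genes) and 5 rose in wild-type cells (28.2%). None fell in either (22.3% and 28.7% of all tested genes). Fanca, a subunit of the core ligase complex, was at 73.3, 77.1 and 97.5 CPM in Jak2V617F pegIFN against 51.0, 70.9 and 78.6 CPM in Jak2V617F vehicle (0.24 ± 0.13, adjusted p = 0.14). In wild-type cells it was at 68.1, 78.2 and 86.2 CPM under pegIFN against 30.6, 47.7 and 59.0 CPM under vehicle (1.67-fold, 0.74 ± 0.13, adjusted p = 4.4e-05). The groups overlapped in Jak2V617F cells and not in wild-type cells. Fancf, an adaptor of the core complex, was the member that rose in both genotypes, at 13.1, 16.6 and 18 CPM in Jak2V617F pegIFN against 10.9, 13.1 and 13.7 CPM in Jak2V617F vehicle (0.34 ± 0.11, adjusted p = 0.012), and at 14.5, 16.8 and 20.1 CPM in wild-type pegIFN against 11.1, 12.4 and 17.1 CPM in wild-type vehicle (0.38 ± 0.11, adjusted p = 0.0036). Fancd2, the clamp that the core complex ubiquitinates, rose in wild-type cells by 0.42 ± 0.13 (adjusted p = 0.009), with no overlap, while its partner Fanci did not pass the test (0.26 ± 0.12, adjusted p = 0.069). Fance, another core subunit, was at 31.4, 39 and 43.3 CPM in wild-type pegIFN against 28.2, 30.6 and 35.5 CPM in wild-type vehicle (0.31 ± 0.08, adjusted p = 0.0023). Fancb (0.37), also of the core, rose in wild-type cells too, and it lost its call with upper-quartile scaling and without the libraries that stand apart. Fancc, Fancg, the ligase subunit Fancl and the translocase Fancm were not called.

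Of the 6 members of non-homologous end joining, 1 rose in Jak2V617F cells (21.7% of all tested genes). In wild-type cells 1 rose and 1 fell, each below the share of all tested genes (28.2% and 28.7%). Xrcc6, a subunit of the Ku ring that grips broken ends, was at 93.7, 100 and 105 CPM in Jak2V617F pegIFN against 80.6, 86.6 and 97.8 CPM in Jak2V617F vehicle (0.18 ± 0.05, adjusted p = 0.0053), and at 94.2, 97.2 and 102 CPM in wild-type pegIFN against 75.7, 78.6 and 89.7 CPM in wild-type vehicle (0.29 ± 0.05, adjusted p = 3.2e-05). The Jak2V617F call was lost with upper-quartile scaling (0.12, adjusted p = 0.066). Its Ku partner Xrcc5 gave 0.07 ± 0.08 in Jak2V617F and 0.02 ± 0.08 in wild-type cells. Xrcc4, the scaffold that holds Lig4 at the ends, fell in wild-type cells, at 4.71, 6.08 and 7.38 CPM under pegIFN against 7.69, 9.58 and 11.8 CPM under vehicle (-0.70 ± 0.15, adjusted p = 0.00035). In Jak2V617F cells it was at 4.81, 6.42 and 9.36 CPM under pegIFN against 7.0, 7.88 and 9.81 CPM under vehicle (-0.29 ± 0.15, adjusted p = 0.13). Xrcc4 was thus the largest decrease among the members, in a gene of low level whose libraries did not overlap in wild-type cells. Lig4 gave 0.39 ± 0.18 in wild-type cells (adjusted p = 0.063), and passed the test there without the libraries that stand apart. Prkdc, the kinase subunit that binds Ku, was not called, at 75.1, 84.6 and 90.5 CPM in Jak2V617F pegIFN against 69.5, 79.0 and 86.9 CPM in Jak2V617F vehicle, and 80.3, 85.2 and 96.0 CPM in wild-type pegIFN against 67.5, 81.7 and 90.4 CPM in wild-type vehicle. The nuclease Dclre1c gave -0.05 ± 0.11 and -0.04 ± 0.11.

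All 6 genes of single-strand break repair, base excision and alternative end joining rose in wild-type cells (28.2% of all tested genes), where upper-quartile scaling left 5 (22.0%). In Jak2V617F cells 3 rose (21.7% of all tested genes), where that scaling left 1 (16.9%). Xrcc1, the scaffold of single-strand break repair, was at 57.6, 62.6 and 72.6 CPM in Jak2V617F pegIFN against 49.9, 53.7 and 56.8 CPM in Jak2V617F vehicle (0.26 ± 0.07, adjusted p = 0.0042), and at 59.5, 64.8 and 67.5 CPM in wild-type pegIFN against 41, 47.8 and 55.6 CPM in wild-type vehicle (0.41 ± 0.07, adjusted p = 1.9e-05). Its pegIFN and vehicle libraries did not overlap in either genotype. Its partner ligase Lig3 rose by 0.14 ± 0.05 in Jak2V617F (adjusted p = 0.024) and 0.27 ± 0.05 in wild-type cells (adjusted p = 4.7e-05). Lig3 was at 107, 118 and 122 CPM in Jak2V617F pegIFN against 94.5, 105 and 111 CPM in Jak2V617F vehicle, and at 109, 124 and 131 CPM in wild-type pegIFN against 97, 101 and 108 CPM in wild-type vehicle, so its groups overlapped in Jak2V617F cells and not in wild-type cells. Parp1, which senses nicks and builds poly(ADP-ribose), was at 352, 381 and 419 CPM in Jak2V617F pegIFN against 296, 350 and 360 CPM in Jak2V617F vehicle (0.16 ± 0.07, adjusted p = 0.051), and at 353, 398 and 453 CPM in wild-type pegIFN against 260, 320 and 345 CPM in wild-type vehicle (0.35 ± 0.07, adjusted p = 0.00012). The Jak2V617F value just missed the threshold and was called with DESeq2 (adjusted p = 0.049), with the mouse as a block (adjusted p = 0.043), with only the groups compared (adjusted p = 0.034) and without the libraries that stand apart (adjusted p = 0.017). Parp2, its paralogue, rose by 0.18 ± 0.05 in Jak2V617F (adjusted p = 0.0064) and 0.13 ± 0.05 in wild-type cells (adjusted p = 0.029), and lost both calls with upper-quartile scaling. Parp2 was at 55.4, 60.2 and 64.9 CPM in Jak2V617F pegIFN against 49, 53.5 and 54.6 CPM in Jak2V617F vehicle, with no overlap, and at 52.9, 55 and 57.5 CPM in wild-type pegIFN against 45.4, 50.5 and 53.9 CPM in wild-type vehicle, with overlap. Ung, the glycosylase that removes uracil from DNA, was at 52.9, 56.9 and 61.7 CPM in wild-type pegIFN against 29.2, 41.7 and 52.4 CPM in wild-type vehicle (0.50 ± 0.10, adjusted p = 0.00015). Polq, the polymerase of alternative end joining, rose in wild-type cells by 0.38 ± 0.08 (adjusted p = 0.00034).

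Among the 4 members of nucleotide excision repair, 1 fell in Jak2V617F cells (22.3% of all tested genes). In wild-type cells 1 rose and 1 fell (28.2% and 28.7%). Xpc, which recognises bulky lesions, was at 37.9, 40.5 and 51.4 CPM in Jak2V617F pegIFN against 50.0, 56.1 and 64.9 CPM in Jak2V617F vehicle (-0.41 ± 0.09, adjusted p = 0.00047). Xpc in wild-type cells was at 46.4, 57.1 and 61 CPM under pegIFN against 58.1, 69.2 and 81.3 CPM under vehicle (-0.31 ± 0.09, adjusted p = 0.0038). The groups overlapped at their edges in both genotypes. Ercc2, a helicase of the transcription factor complex TFIIH, gave 0.20 ± 0.09 in Jak2V617F (adjusted p = 0.059) and rose by 0.29 ± 0.09 in wild-type cells (adjusted p = 0.0062). Its libraries were at 60.3, 75.8 and 89 CPM in Jak2V617F pegIFN against 56.7, 64.1 and 73.7 CPM in Jak2V617F vehicle, and at 71.7, 77 and 88.2 CPM in wild-type pegIFN against 59.5, 64.4 and 71 CPM in wild-type vehicle, without overlap in wild-type cells. The nuclease subunit Ercc1 and the lesion-binding Xpa were not called. Both mismatch repair genes, Msh6 (0.13 ± 0.05, adjusted p = 0.028) and Pms2 (0.16 ± 0.07, adjusted p = 0.04), rose in wild-type cells by small amounts, and neither was called with upper-quartile scaling (adjusted p = 0.36 and 0.3) or without the libraries that stand apart (adjusted p = 0.06 and 0.081). Msh6 was at 170, 177 and 185 CPM in wild-type pegIFN against 140, 164 and 175 CPM in wild-type vehicle, and Pms2 at 41, 43.6 and 44 CPM in wild-type pegIFN against 32.8, 38.1 and 43.4 CPM in wild-type vehicle. The treatments overlapped for both.

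**Figure D4:**
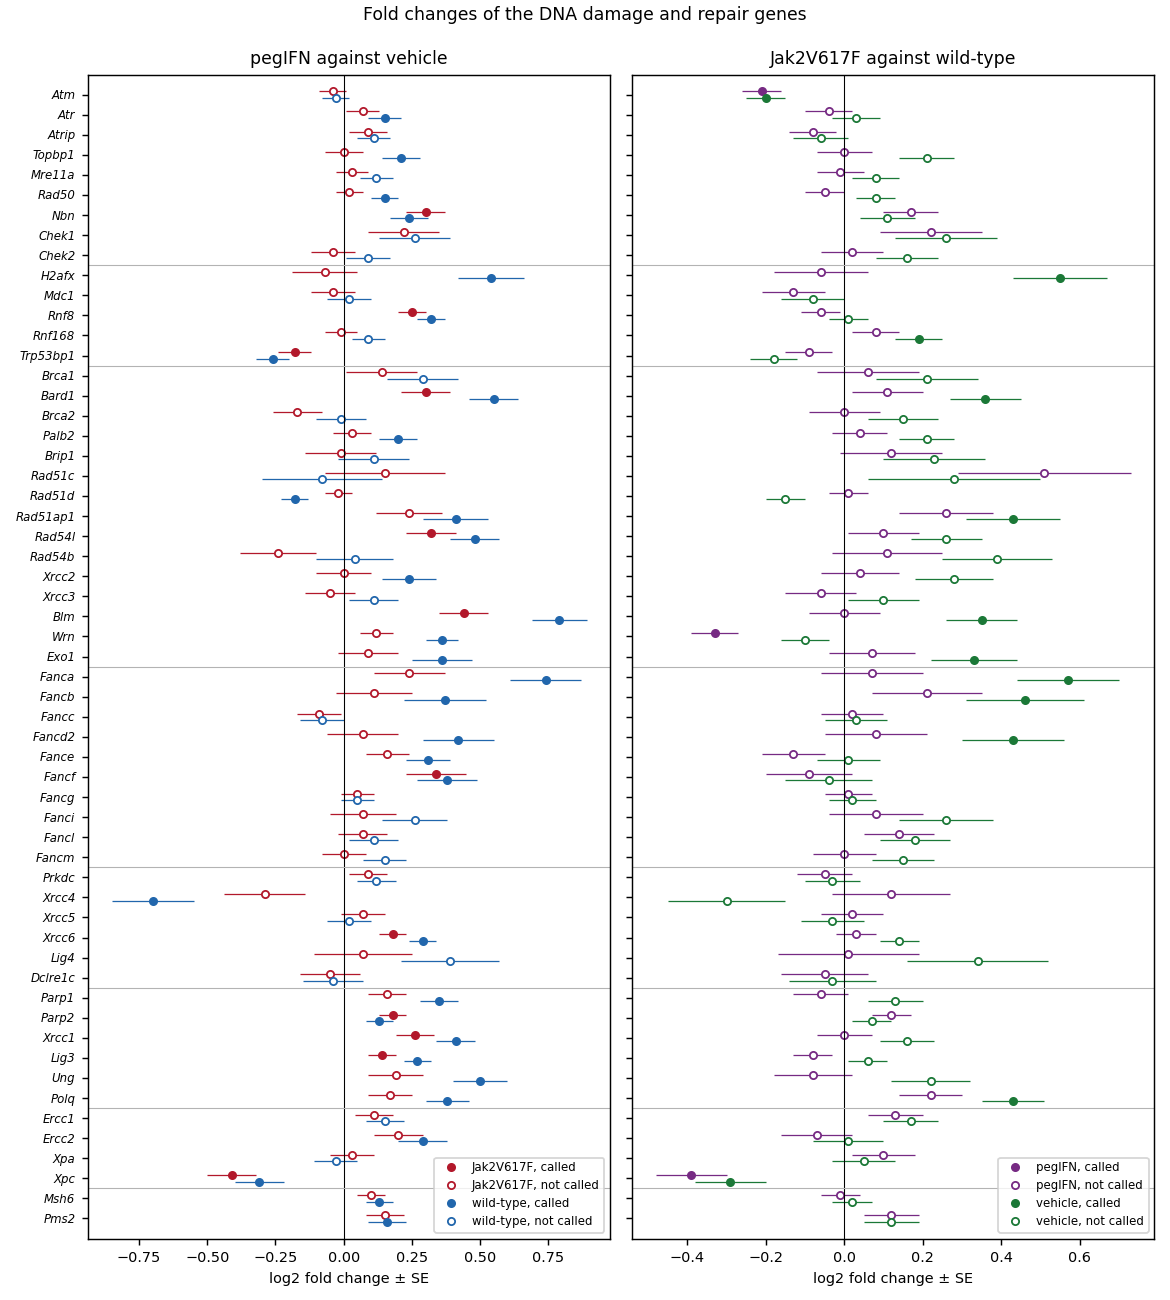
Log2 fold change of each member with its standard error, for pegIFN against vehicle (left, Jak2V617F in red and wild-type in blue) and for Jak2V617F against wild-type (right, pegIFN in purple and vehicle in green). Filled points are called at an adjusted p under 0.05, and most blue points lie to the right of 0, up to 0.79 for Blm, with Xrcc4 at -0.70.

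Other DNA repair genes were counted in the same way. Of 103 repair genes outside the members, 32 rose and 9 fell with pegIFN in Jak2V617F cells (21.7% and 22.3% of all tested genes). In wild-type cells 53 rose and 11 fell (28.2% and 28.7%). Their median fold changes were 0.11 and 0.20. Among those with the smallest p values were Faap24, a Fanconi anaemia accessory protein (0.78 ± 0.09 in Jak2V617F and 0.75 ± 0.09 in wild-type cells), and Ddb2, the partner of Xpc in lesion recognition (-0.53 ± 0.08 and -0.64 ± 0.08). The abasic-site nuclease Apex1 rose by 0.29 ± 0.06 in Jak2V617F and 0.39 ± 0.06 in wild-type cells. The helicase Recql rose by 0.21 ± 0.06 in Jak2V617F and 0.51 ± 0.06 in wild-type cells. Ddb2 thus fell together with Xpc in both genotypes.

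Genes of the cell cycle were counted beside the members. With pegIFN 21.7% of all tested genes rose and 22.3% fell in Jak2V617F cells, and 28.2% rose and 28.7% fell in wild-type cells. Of 27 G1/S and replication genes, 19 rose with pegIFN in Jak2V617F and 23 in wild-type cells and none fell, and their summed level was 5060 to 5580 CPM in Jak2V617F pegIFN against 3570 to 4800 CPM in Jak2V617F vehicle, and 4870 to 5330 CPM in wild-type pegIFN against 2810 to 4430 CPM in wild-type vehicle. Of 25 genes of G2/M and mitosis, none rose and 2 fell in Jak2V617F cells, and 19 rose and none fell in wild-type cells. Their summed level was 3550 to 4110 CPM in Jak2V617F pegIFN against 2950 to 4510 CPM in Jak2V617F vehicle, and 3390 to 3720 CPM in wild-type pegIFN against 1880 to 3650 CPM in wild-type vehicle. Wild-type vehicle replicates 4 and 5, the libraries lowest in many members, were also lowest in the G1/S sum, at 2810 and 3130 CPM. In the G2/M sum wild-type vehicle replicate 4 was the lowest, at 1880 CPM, but replicate 6 (2410 CPM) lay below replicate 5 (2540 CPM). Jak2V617F vehicle replicate 4 was the lowest of its group for Blm, Bard1 and Parp1. It was also the lowest of its group in both sums, at 3570 CPM for G1/S and 2950 CPM for G2/M. The part of cycling cells, and of the fall in LT-HSC markers, in the members' differences was not tested. Of 25 targets of p53, the transcription factor activated by DNA damage, 12 rose and 3 fell in Jak2V617F cells (21.7% and 22.3% of all tested genes). In wild-type cells 7 rose and 7 fell, each near the share of all tested genes (28.2% and 28.7%). The target Bax, a promoter of apoptosis, rose by 0.83 ± 0.07 in Jak2V617F and 0.78 ± 0.07 in wild-type cells, and Sesn1 fell by 0.55 and 0.79.

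Under vehicle, 10 of the 57 members were higher and 2 lower in Jak2V617F than in wild-type cells (17.5% and 3.51%, against 8.48% and 4.23% of all tested genes). The median difference was 0.14 over the members and -0.01 over all tested genes. With the mouse as a block, which compares the 2 genotypes within each mouse, 27 were higher and 5 lower (47.4% and 8.77%, against 17.5% and 13.6% of all tested genes). The members higher in the main test were H2afx, Rnf168, Bard1, Rad51ap1, Blm, Exo1, Fanca, Fancb, Fancd2 and Polq, and the block added Brca1, Chek1, Chek2, Topbp1, Palb2, Rad54l and Xrcc1 among others. On the lower side the block added Trp53bp1 (-0.18 ± 0.04, adjusted p = 0.0042), Rad51d (-0.15 ± 0.05, adjusted p = 0.036) and Xrcc4 (-0.29 ± 0.10, adjusted p = 0.031). Trp53bp1 missed the threshold in the main test (adjusted p = 0.07). It was called lower with DESeq2 (adjusted p = 0.039), upper-quartile scaling (adjusted p = 0.046) and a filter of 1 CPM in 12 libraries (adjusted p = 0.044). Upper-quartile scaling gave 8 higher and 4 lower (7.05% and 5.84% of all tested genes). Without the libraries that stand apart, of which wild-type vehicle replicate 4 enters this comparison, 4 were higher and none lower (4.41% and 1.89% of all tested genes), namely H2afx, Bard1, Fanca and Polq. Without both mice of those libraries 11 were higher and 1 lower (6.81% and 2.82%).

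Polq had the smallest p among the members in this comparison, at 46.6, 50.0 and 52.9 CPM in Jak2V617F vehicle against 30.7, 36.2 and 44.8 CPM in wild-type vehicle (0.43 ± 0.08, adjusted p = 0.0029), and its groups did not overlap. H2afx was at 177, 231 and 257 CPM in Jak2V617F vehicle against 103, 144 and 198 CPM in wild-type vehicle (0.55 ± 0.12, adjusted p = 0.0071). Fanca differed most, at 51.0, 70.9 and 78.6 CPM in Jak2V617F vehicle against 30.6, 47.7 and 59.0 CPM in wild-type vehicle (0.57 ± 0.13, adjusted p = 0.008). The groups overlapped for H2afx and Fanca. The Jak2V617F library was the higher one in 6 of 6 mice for each of the 3 genes. Counts of mice use the same libraries as the test that picked these genes, so they are not a separate test. Members that were not called, such as Fancl, Fancm and Lig4, also reached 6 of 6, and the share of all tested genes was not counted. In all counts of vehicle mice, mouse 4 holds wild-type vehicle replicate 4, whose genotype is in doubt. Bard1 (0.36 ± 0.09, adjusted p = 0.011) and Blm (0.35 ± 0.09, adjusted p = 0.019) were also higher in 6 of 6 mice. In the fit of only the vehicle groups Fanca (adjusted p = 0.052), Bard1 (adjusted p = 0.063) and Blm (adjusted p = 0.084) lost their calls, and Blm lost it without the libraries that stand apart (0.28, adjusted p = 0.06). Xpc was lower, at 50.0, 56.1 and 64.9 CPM in Jak2V617F vehicle against 58.1, 69.2 and 81.3 CPM in wild-type vehicle (-0.29 ± 0.09, adjusted p = 0.03), and Atm was lower too (-0.20 ± 0.05, adjusted p = 0.02), each in 6 of 6 mice. The Xpc call was lost without the libraries that stand apart (-0.23, adjusted p = 0.1) and in the fit of only the vehicle groups (-0.29, adjusted p = 0.052). The 2 genotypes did not overlap for 2 members above (3.51%, against 1.76% of all tested genes) and 1 below (1.75%, against 1.15%).

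The count of members called higher under vehicle depended on single libraries. It was 6 without Jak2V617F vehicle replicate 1 (6.11% of all tested genes were then called higher), 6 without replicate 2 (6.37%) and 5 without replicate 6 (5.99%). It was 4 without wild-type vehicle replicate 4 (4.42%), 4 without replicate 5 (3.77%) and 5 without replicate 6 (4.57%), and 18 without wild-type vehicle replicate 2 (10%) and 16 without replicate 3 (10.7%). The calls over all tested genes thus moved in the same direction as those of the members in these fits. In a fit of only the vehicle groups it was 2, and 1 member was lower (3.68% and 2.85% of all tested genes). Markers of dividing cells moved in the same direction, since 24 of 25 G2/M genes and 8 of 27 G1/S genes were higher in Jak2V617F vehicle cells (8.48% of all tested genes were). The part of these markers in the members' difference was not tested.

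**Figure D5:**
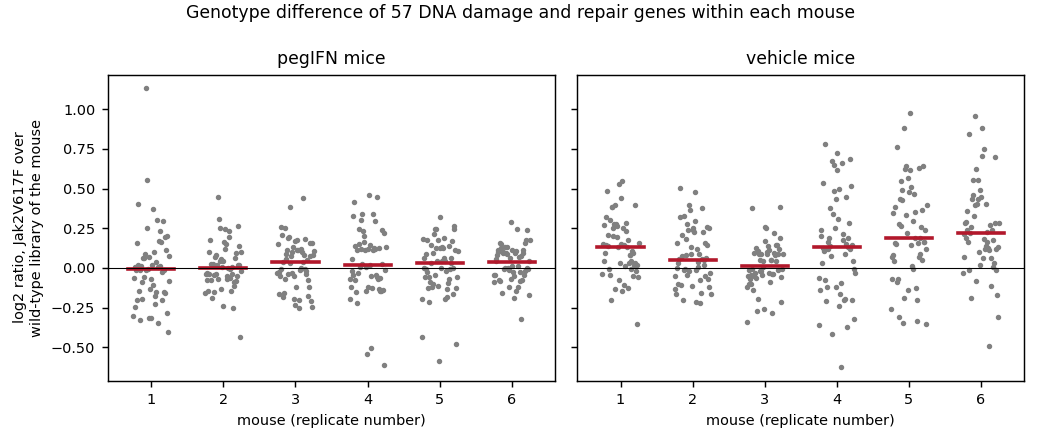
Log2 ratio of the Jak2V617F to the wild-type library of each mouse (with 0.5 CPM added to both) for each of the 57 members (points) and their median (red bar), in pegIFN mice (left) and vehicle mice (right). The medians lie between -0.01 and 0.04 in the 6 pegIFN mice and between 0.01 and 0.22 in the 6 vehicle mice. Vehicle mouse 4 and pegIFN mouse 1 each hold 1 library whose genotype is in doubt.

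Within single vehicle mice, 43, 36, 29, 38, 44 and 48 of the 57 members were higher in the Jak2V617F library (replicates 1 to 6), with medians of 0.13, 0.05, 0.01, 0.13, 0.19 and 0.22. For the pegIFN mice the counts were 27, 30, 31, 32, 29 and 32. Vehicle mouse 4 and pegIFN mouse 1 each hold 1 library whose genotype is in doubt. Of all tested genes, 48.0 to 52.8% were higher in the Jak2V617F library of a mouse. Vehicle mouse 3 thus lay within the range of the pegIFN mice, and the other 5 vehicle mice lay above it.

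Under pegIFN, none of the members was higher and 3 were lower in Jak2V617F than in wild-type cells (0.0% and 5.26%, against 4.16% and 4.43% of all tested genes), and at an unadjusted p under 0.05 there were 5 higher and 3 lower (8.77% and 5.26%, against 13.1% and 11.2% of all tested genes). DESeq2 also called 0 higher and 3 lower (5.58% and 6.52% of all tested genes). Wrn was at 77.4, 82.2 and 96.2 CPM in Jak2V617F pegIFN against 94.5, 103 and 119 CPM in wild-type pegIFN (-0.33 ± 0.06, adjusted p = 0.0015) and lower in 6 of 6 mice. Xpc was at 37.9, 40.5 and 51.4 CPM in Jak2V617F pegIFN against 46.4, 57.1 and 61 CPM in wild-type pegIFN (-0.39 ± 0.09, adjusted p = 0.0073), also lower in 6 of 6 mice. Ung and Dclre1c, which were not called, were lower in 6 of 6 mice too. In all counts of pegIFN mice, mouse 1 holds Jak2V617F pegIFN replicate 1, whose genotype is in doubt. Atm was at 90.8, 93.4 and 98.1 CPM in Jak2V617F pegIFN against 101, 106 and 123 CPM in wild-type pegIFN (-0.21 ± 0.05, adjusted p = 0.02), the member whose groups did not overlap (1.75%, against 1.81% of all tested genes all below, with 0 members and 1.65% of all tested genes all above). Without the libraries that stand apart 0 were higher and 2 lower (1.51% and 2.63% of all tested genes), and the Atm values were -0.20 (adjusted p = 0.051) under pegIFN and -0.19 (adjusted p = 0.053) under vehicle. With the mouse as a block 4 members were higher and 4 lower (7.02% each, against 13.3% and 11.3% of all tested genes), the higher ones being Polq (0.22 ± 0.06, adjusted p = 0.016), Nbn (0.17 ± 0.06, adjusted p = 0.029), Rad51c (0.48 ± 0.16, adjusted p = 0.039) and Chek1 (0.22 ± 0.08, adjusted p = 0.044), and Mdc1 being the added lower one (-0.13 ± 0.05, adjusted p = 0.048).

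The interaction asks whether pegIFN changed a gene by a different amount in Jak2V617F than in wild-type cells. No member was called (0.0% of all tested genes called), 7 of the 57 had an unadjusted p under 0.05, against 8.43% of all tested genes, and DESeq2 called 0 members (0.063% of all tested genes higher and 0.176% lower). The point estimates were mostly below 0, in 86.0% of the members against 50.4% of all tested genes, with a median of -0.11 (over all tested genes 0.00). With the mouse as a block 3 members were called, all lower (5.26%, against 2.05% of all tested genes, with 1.28% higher): H2afx (-0.63 ± 0.11, adjusted p = 0.011), Fanca (-0.53 ± 0.13, adjusted p = 0.041) and Fancd2 (-0.36 ± 0.09, adjusted p = 0.042). For each of the 3, wild-type vehicle cells had the lowest median of the 4 groups. The G2/M genes behaved alike in this fit, with 19 of 25 lower, and their part in the members' values was not tested. For Xpc the interaction was -0.11 ± 0.12 (adjusted p = 0.82).

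Some members share exon sequence with other genes, and the strand of the reads is not given in the sources used here, so part of their counts may belong to the neighbour. By the same joined GENCODE exons, the overlap was 42.4% of exon length for Ercc2, 35.8% for Rad54b, 25.1% for Lig3, 18.6% for Fancc, 16% for Fanci and for Atrip, 15.4% for Rad54l, 15.0% for Trp53bp1 and Fancf, 13.7% for Fancl, 13.2% for Rnf8, 10.5% for Fanca and 10.2% for H2afx. It was 2.66% for Xrcc4, and Blm, Bard1 and Wrn had none.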

How the data were processed

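Per the submitters' processing notes, the tools were RSEM 1.2.30, STAR 2.5.2a and cutadapt 1.11 and the build was GRCm38, and the authors deposited RSEM expected counts per gene for 24 libraries. The annotation release and strand setting are not given in the sources used here. Of the deposited values 16.8% were not whole, and all were rounded. Counts were fitted with edgeR 4.0.16 (quasi-likelihood F test, TMM factors, filterByExpr with a minimum count of 10, 4 group means, R 4.3.3), with Benjamini-Hochberg adjustment over 15879 genes, and the code was tested on simulated data. Alternatives used DESeq2 1.42.0, limma 3.58.1, other scalings, filters and sample sets.

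The numbers in the library names pair the libraries of a mouse, and deviations of paired libraries correlated by 0.12 to 0.42. Among the libraries of the other genotype under the same treatment, 22 of 24 libraries correlated best with their partner. The block fit used edgeR for genotype and interaction and limma with the mouse as a random block for pegIFN.

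Members and lists were chosen with earlier results of these data known. All members may be named. Full values are given for up to 3 called members of each role with the smallest p for pegIFN, every member called against the majority, up to 6 in each genotype comparison and the interaction, and Atm, Atr, Chek1, Brca1, Brca2, H2afx, Trp53bp1, Prkdc and Parp1. Other repair genes are named by smallest p, and some are not reported here. Bax and Sesn1 were named after their values were seen.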

Additional observations from a re-analysis of the deposited data

Results flagged for a closer look

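Each value here is 1 library whose gap to the nearest of the other 5 in its group was large for the range of the group (Dixon's test). Of 228 groups 11 were picked out (4.82%), and chance gives about 1 in 20.

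In Jak2V617F vehicle replicate 4, Bard1 was at 26.8 CPM against 36.5 to 39.98 CPM in the others, Blm at 60.1 against 75.1 to 82.6 CPM, and Parp1 at 296.0 against 339 to 360 CPM. Fancg was at 38.2 CPM in Jak2V617F vehicle replicate 3 against 33.5 to 34.8 CPM, and Fancl at 17.2 CPM in Jak2V617F vehicle replicate 1 against 14.2 to 15.1 CPM. Rad51c was at 9.72 CPM in Jak2V617F pegIFN replicate 1 against 4.53 to 5.82 CPM, and Ung at 47.7 CPM in Jak2V617F pegIFN replicate 4 against 53.3 to 56.4 CPM. Xrcc3 was at 21.7 CPM in wild-type pegIFN replicate 6 against 26.8 to 29.2 CPM, and Dclre1c at 23.9 CPM in wild-type pegIFN replicate 4 against 19.6 to 21.1 CPM. In wild-type vehicle replicate 4, Rad51d was at 48.0 CPM against 41.7 to 43.7 CPM and Dclre1c at 31.4 against 17.6 to 22.1 CPM.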

How the results depend on the processing

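For pegIFN, the number of members called higher stayed within 1.5 times its value in both genotypes under every alternative chosen at the start. The number called lower in Jak2V617F cells was 1 rather than 2 with no filter, with only the groups compared, and without the 2 libraries that stand apart or their mice. Between genotypes under vehicle, the replicate block gave 27 higher and 5 lower (32 in all), only the groups compared gave 2 and 1 (3 in all), and leaving out the 2 libraries that stand apart gave 4 and 0 (4 in all). The number lower there was 4 with DESeq2, upper-quartile scaling or 1 CPM in 12 libraries, and 1 without both mice. Between genotypes under pegIFN, the replicate block gave 4 higher (8 in all), where 13.3% of all tested genes were higher and 11.3% lower. Only the groups compared gave 2 higher (5 in all), and the share of all tested genes was not counted for that fit. The replicate block called 3 interactions, all lower (3 in all). The cause of these shifts was not tested. Leaving out 1 library at a time, an alternative chosen after seeing the data, gave 27 to 38 called (23 to 34 higher, 4 lower) for pegIFN in wild-type cells, 11 to 15 (9 to 14 higher, 1 to 3 lower) in Jak2V617F cells, 4 to 20 (4 to 18 higher, 0 to 3 lower) between genotypes under vehicle, 2 to 4 (0 to 1 higher, 2 to 3 lower) under pegIFN, and 0 interactions. Uncalled values near 0 changed sign for Brca2 with pegIFN in wild-type cells with no filter (0.02), Prkdc between genotypes without both mice (0.01 under vehicle and 0.01 under pegIFN), the Atm interaction with upper-quartile scaling (0.01), and the Chek1 (0.02) and Prkdc (0.01) interactions without the 2 libraries. The fit of only the groups compared was not run for the interaction, which uses all 4. Counts of this section with no share of all tested genes, here or above, cannot be set against a background. They show only how the calls moved, and this holds for most fits that leave out 1 library. With 6 libraries a group, members of low level such as Rad51c and Lig4 are the least precise.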
